A study of Mus musculus with 11 samples.

Results

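A group of 8 genes of the ATF4 and CHOP transcription network were followed in mouse granulocyte-monocyte progenitor clones with and without tafazzin. They are Atf4, Atf5 and Atf3 of the activating transcription factors, Ddit3 (which encodes CHOP), Cebpg and Cebpb of the CCAAT/enhancer-binding proteins, the pseudokinase Trib3 and the stress cofactor Nupr1. The genes were taken by name, each through its Ensembl ID, and all 8 were found among the 37583 gene IDs of the deposited counts. Of these 8, 7 passed the filter on low counts that precedes the test, and Atf3 did not.

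When the translation factor eIF2alpha is phosphorylated by a stress kinase, most protein synthesis slows while the Atf4 mRNA is translated better, and ATF4 protein then raises genes of amino acid supply and stress defence. ATF4 and CHOP belong to the basic leucine zipper (bZIP) family, whose members bind DNA as pairs. CEBPG and CEBPB are known as pairing partners, and TRIB3 is a target gene that feeds back to restrain ATF4 and CHOP. In myeloid cells the C/EBP proteins also direct granulocyte and monocyte development.

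RNA was sequenced from 11 lines grown from single cells of C57BL/6 fetal liver taken at embryonic day 15.5, of which 6 were wild-type (WT) and 5 were tafazzin knockout (KO). Tafazzin, the product of Taz, remodels the mitochondrial phospholipid cardiolipin. All 11 lines, the WT lines included, carried retroviral ER-Hoxb8, an estrogen receptor fusion that holds progenitors immature, and grew undifferentiated in 0.5 uM beta-estradiol with stem cell factor equivalent to about 50 ng/ml. Clones are named here by genotype and title, and the title number is 1 or 2 in WT (3 clones each) and 3 (2 clones) or 4 (3 clones) in KO. The sources used here do not give the meaning of that number, and clones with the same number may or may not share an origin. Each p-value therefore reflects no more than the spread among the 11 clones.

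Gene counts totalled 24.97 ± 2.15 M per library in WT (SD, n = 6) and 21.6 ± 1.90 M in KO (SD, n = 5). Levels are counts per 1000000 (CPM) on library sizes scaled by the trimmed mean of M-values (TMM). Taz stood at 39.1 ± 2.54 CPM in WT and 3.23 ± 0.68 CPM in KO clones, without overlap; which part of the gene was removed is not stated in the labels. All 11 progenitor markers listed for the labelled cell type, Mpo, Elane and Kit among them, passed the filter, with a summed level of 13240 to 22700 CPM in WT and 12350 to 20460 CPM in KO. WT 2D stood apart in its late neutrophil markers, whose 12 genes summed to 1546 CPM there against 22.1 to 115.6 CPM in the other WT clones and 15.95 to 146.3 CPM in KO clones. None of those 12 genes was at 0 in all clones, and results that rest on WT 2D are given with and without it. In bulk RNA, fewer cells of a type and less RNA per cell cannot be told apart.

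Ddit3, Cebpg and Trib3 rose in KO clones at an edgeR adjusted p under 0.05, which is 3 of the 7 tested genes, and all 7 fold changes were positive. Across all 11900 tested genes 5.05% were called in either direction and 2.76% were called higher. The network genes were picked with earlier results in view, so setting them beside all genes is a description and not an independent test. Trib3 rose most, by a log2 fold change of 2.97 ± 0.57 (SE), then Ddit3 by 1.34 ± 0.14 and Cebpg by 0.52 ± 0.06. Atf4, Atf5 and Nupr1 had positive fold changes that missed the threshold, Cebpb had a fold change near 0, and Atf3 was too low to enter the test. Without WT 2D the count was 5, with Atf4 and Atf5 added. The median log2 fold change of the 7 tested genes was 1.07, beside -0.01 over all tested genes, whose median absolute value was 0.11. Every KO clone lay above every WT clone for Ddit3, Cebpg and Trib3, and also for the untested Atf3, where 2.97% of tested genes separated in that direction.

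**Figure D1:**
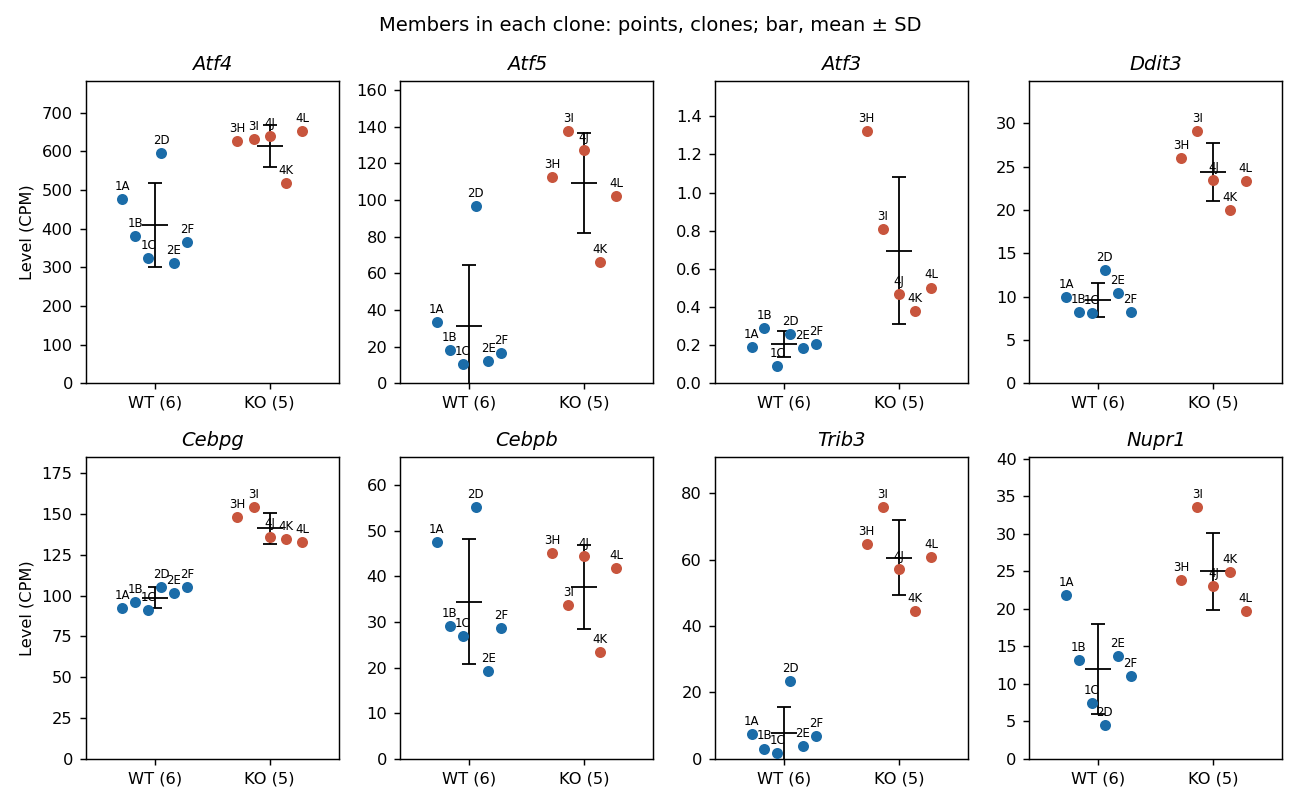
Level of each gene in CPM (vertical axes, 1 scale per gene) in the 6 WT and 5 KO clones; points are clones with their titles, and bars give the mean and SD. The KO points lie above all WT points for Atf3, Ddit3, Cebpg and Trib3, and WT 2D lies above the lowest KO point for Atf4, Atf5 and Cebpb.

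Atf4 mRNA was the most abundant of the 8 per length of transcript. Among WT clones it stood at 476.1 CPM in 1A, 381.2 in 1B, 323.0 in 1C, 594.5 in 2D, 311.4 in 2E and 366.1 in 2F. Among KO clones it stood at 626.4 CPM in 3H, 632.8 in 3I, 639.9 in 4J, 518.2 in 4K and 651.3 in 4L. The KO levels kept to a narrow band, with 4 of 5 above every WT clone, and WT 2D lay inside the KO range. The means were 408.7 ± 108.1 CPM in WT and 613.7 ± 54.19 CPM in KO (SD, n = 6 and 5). The log2 fold change was 0.59 ± 0.16 (SE) and was not called, at an edgeR adjusted p of 0.0621. Without WT 2D it was 0.72 ± 0.12 and was called (edgeR adjusted p = 0.00733), and it was not called when any other single clone was left out. It was called in 6 of 28 alternatives, among them DESeq2, limma-voom and a fit with the late neutrophil score of each clone as a covariate (log2 fold change 0.76 ± 0.09). The part that the late neutrophil genes of WT 2D have in this difference was not tested beyond that covariate.

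Atf5, a related factor whose translation is also raised by eIF2alpha phosphorylation and which is tied to mitochondrial protein stress, followed the same clones more steeply. Its WT levels were 33.57, 18, 10.73, 96.70, 12.04 and 16.71 CPM in the clone order given for Atf4, which is kept from here on. Its KO levels were 112.5, 137.5, 127.4, 66.44 and 102.4 CPM. WT 2D exceeded KO 4K, and the other 5 WT clones lay below every KO clone. Highest and lowest clones differed 9.01-fold in WT and 2.07-fold in KO. The means were 31.3 ± 33.1 CPM in WT and 109.2 ± 27.5 CPM in KO (SD, n = 6 and 5). The log2 fold change of 1.80 ± 0.56 (SE) was not called (edgeR adjusted p = 0.0939), and without WT 2D it was 2.58 ± 0.33 and called (edgeR adjusted p = 0.00279). No other single omission gave a call. The exons of Atf5 overlap those of Il4i1 and Nup62 on the opposite strand in GENCODE M21, and the counts did not use strand.

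Atf3, a stress-induced factor of the same family, was close to silent in these progenitors. WT libraries held 2 to 8 counts each and KO libraries 8 to 26. This is 0.192, 0.291, 0.0910, 0.259, 0.184 and 0.207 CPM in the WT clones and 1.32, 0.807, 0.468, 0.376 and 0.502 CPM in the KO clones. Every KO clone was above every WT clone in CPM, and KO 3H was the highest. WT 1B and KO 4K both held 8 counts, so their order rests on library size alone. A two-sided exact permutation test on log2(CPM + 0.1) had a p of 0.00216, and no split among the 462 possible can give a lower value. At under 30 counts per library the size of the difference is poorly measured. With no filter on low counts Atf3 was called higher, and without KO 4K it passed the filter and was called, at 1.89 on the log2 scale (edgeR adjusted p = 0.0283). Atf3 was called in 2 of the 5 alternatives in which it could be tested, these 2, with edgeR adjusted p from 0.0283 to 0.209.

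Ddit3 encodes CHOP, a C/EBP relative that pairs with other C/EBP and ATF proteins and is known for its part in cell death under lasting stress. It stood at 9.95, 8.18, 8.10, 13.09, 10.45 and 8.21 CPM in the 6 WT clones. In the 5 KO clones it stood at 26.06, 29.08, 23.50, 20 and 23.34 CPM. The groups were well apart, with the highest WT clone, 2D, at 13.09 CPM and the lowest KO clone, 4K, at 20 CPM. The means were 9.66 ± 1.96 and 24.4 ± 3.39 CPM (SD, n = 6 and 5), a ratio of 2.52. The log2 fold change of 1.34 ± 0.14 (SE) had an edgeR adjusted p of 0.00117. The call held with each of the 11 clones left out and in all 28 alternatives tried. The exons of Ddit3 overlap the opposite-strand gene Mars, a methionyl-tRNA synthetase with far more reads, in GENCODE M21. Mars itself had a log2 fold change of 0.18 that was not called (edgeR adjusted p = 0.222), and which strand the Ddit3 reads came from was not tested.

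Cebpg encodes a short C/EBP protein known as a partner of ATF4 at amino acid response genes. Its WT levels were 92.34, 96.20, 90.95, 105.2, 101.7 and 105.4 CPM. Its KO levels were 147.9, 154.1, 136.1, 134.5 and 132.6 CPM. The change was modest and even, with highest and lowest clones only 1.16-fold apart in each genotype, and WT 2D was no closer to KO than WT 2F. The means were 98.6 ± 6.37 and 141.1 ± 9.42 CPM (SD, n = 6 and 5). The log2 fold change was 0.52 ± 0.06 (SE), called at an edgeR adjusted p of 0.00117. The call held with each clone left out and in 27 of 28 alternatives. It was lost with counts summed per title number (edgeR adjusted p = 0.0647).

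Cebpb, an activator known for emergency granulopoiesis and macrophage genes, did not separate the genotypes. It stood at 47.55, 29.20, 26.88, 55.13, 19.25 and 28.74 CPM in WT and at 45.11, 33.67, 44.33, 23.43 and 41.81 CPM in KO. No KO clone exceeded the highest WT clone, and 3 WT clones lay inside the KO range. The means were 34.5 ± 13.8 and 37.7 ± 9.16 CPM (SD, n = 6 and 5). KO exceeded WT by a log2 fold change of 0.13 ± 0.27 (SE), with an edgeR adjusted p of 0.840, and none of the 28 alternatives called it, with values from 0.01 to 0.43. Its exons overlap opposite-strand Tmem189 in GENCODE M21.

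Trib3, the feedback pseudokinase, had the largest fold change of the tested members. WT clones held 7.53, 3.13, 1.77, 23.42, 3.75 and 6.76 CPM. KO clones held 64.57, 75.78, 57.20, 44.65 and 60.84 CPM. No KO clone reached down to WT 2D, the highest WT clone, and the other WT clones were at 7.53 CPM or less. Highest and lowest clones differed 13.2-fold in WT and 1.70-fold in KO. The means were 7.73 ± 7.99 and 60.6 ± 11.3 CPM (SD, n = 6 and 5), a ratio of 7.84. The log2 fold change of 2.97 ± 0.57 (SE) had an edgeR adjusted p of 0.0170, and the call held with each clone left out (adjusted p from 0.000958 to 0.0475). Without WT 2D the log2 fold change was 3.72 ± 0.37. The call was lost with counts summed per title number and in 3 fits that left out every clone of number 1, 3 or 4 (edgeR adjusted p up to 0.200).

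Nupr1 encodes a small chromatin-associated stress protein. Its WT levels were 21.86, 13.17, 7.46, 4.54, 13.69 and 10.99 CPM. Its KO levels were 23.88, 33.58, 23.03, 24.89 and 19.78 CPM. Here WT 2D was the lowest clone, and WT 1A, not WT 2D, was the clone inside the KO range. The means were 11.95 ± 5.98 and 25.03 ± 5.15 CPM (SD, n = 6 and 5). Its log2 fold change of 1.07 ± 0.33 (SE) was not called (edgeR adjusted p = 0.0953). It was called when WT 1A was left out (edgeR adjusted p = 0.0410), and not when any other clone was left out.

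**Figure D2:**
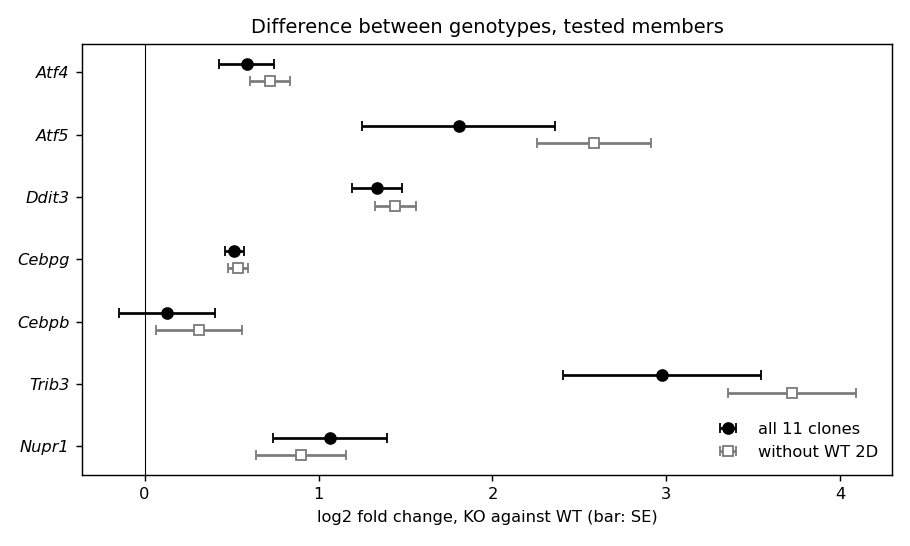
Log2 fold change of KO against WT (horizontal axis) for the 7 tested genes with its standard error, from all 11 clones (filled circles) and without WT 2D (open squares). Without that clone the values move to 0.72 for Atf4, 2.58 for Atf5 and 3.72 for Trib3, and Nupr1 moves down to 0.90.

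Levels compared between genes need a scale per length, here CPM per kilobase of exon by GENCODE M21. The length includes exon bases that Ddit3, Atf5 and Cebpb share with opposite-strand genes. Reads from those bases may have gone uncounted, so the order between genes is approximate. On this scale the WT order was Atf4 at 173 ± 45.9, Cebpb at 22.9 ± 9.16, Cebpg at 17.6 ± 1.13, Atf5 at 15.7 ± 16.6, Ddit3 at 5.64 ± 1.15, Nupr1 at 4.75 ± 2.38, Trib3 at 3.64 ± 3.76 and Atf3 at 0.0948 ± 0.0321 (SD, n = 6). Atf4 and Atf3 stood clear of the rest, and from Cebpb to Trib3 neighbours lay within their spread. The Atf5 mean was raised by WT 2D, at 48.52. Its values of 5.385 in WT 1C and 6.039 in WT 2E lay inside the WT range of Ddit3, 4.725 to 7.643. In KO the order was Atf4 at 260 ± 22.98, Atf5 at 54.8 ± 13.8, Trib3 at 28.5 ± 5.33, Cebpg at 25.1 ± 1.67, Cebpb at 25.05 ± 6.09, Ddit3 at 14.2 ± 1.98, Nupr1 at 9.96 ± 2.05 and Atf3 at 0.323 ± 0.179 (SD, n = 5). Trib3, Cebpg and Cebpb did not differ beyond their spread there.

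Ratios between pairs of the genes were taken within each clone, per length, for 4 pairs. Trib3 over Ddit3 was 0.610, 0.308, 0.177, 1.44, 0.290 and 0.664 in WT clones and 2.00, 2.10, 1.96, 1.80 and 2.10 in KO clones. On this scale Trib3 was the lower of the pair in 5 of 6 WT clones and the higher in all 5 KO clones. The Ddit3 level per length may be understated because its exons overlap Mars, so which gene is the higher is not settled. The exact permutation test on log2 ratios was two-sided and gave p = 0.00433 for this pair, 0.00866 adjusted over the 4 ratios. Ddit3 over Atf4 was 0.0334 ± 0.0066 in WT and 0.0547 ± 0.0057 in KO (SD, n = 6 and 5; exact p = 0.00433, adjusted 0.00866). Atf5 over Atf4 was 0.0785 ± 0.0578 and 0.209 ± 0.0414 (exact p = 0.00866, adjusted 0.0115). Cebpg over Cebpb was 0.869 ± 0.335 and 1.06 ± 0.312, a difference within the spread (exact p = 0.331, adjusted 0.331).

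The clones of a genotype kept much of their order from gene to gene. WT 2D was the highest WT clone for 5 of the 8 genes (Atf4, Ddit3, Atf5, Cebpb and Trib3) and the lowest for Nupr1. WT 1C was the lowest WT clone for 5 of 8. Among KO clones, 3I was the highest for 5 of 8 and 4K the lowest for 6 of 8. These orders are a description of 11 libraries in which the genes share each library.

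**Figure D3:**
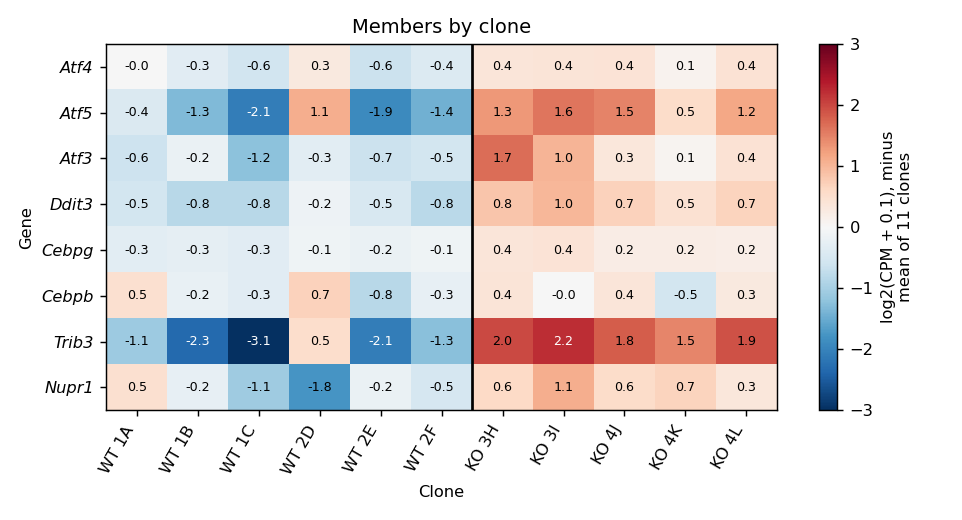
Each gene (rows) in each clone (columns) as log2(CPM + 0.1) minus the gene's mean over the 11 clones, with the black line between WT and KO. Trib3 and Atf5 have the widest range, WT 2D is above 0 for Atf4, Atf5, Cebpb and Trib3, and its Nupr1 value is the lowest of all 11 clones.

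Within each genotype the 2 title numbers were compared in a model of 4 means. None of the 7 tested genes was called by edgeR, DESeq2 or limma-voom in either genotype, and edgeR called 0% of all tested genes for WT number 2 against 1 and 0% for KO number 4 against 3. At an unadjusted p under 0.05 there were 372 and 161 genes, and DESeq2 called 15 and 6. Cebpg was the member with an unadjusted p under 0.05 in either contrast. It ranged from 90.95 to 96.20 CPM in number 1 and from 101.7 to 105.4 CPM in number 2, a log2 difference of 0.16 ± 0.04 (SE). In KO it ranged from 147.9 to 154.1 CPM in number 3 and from 132.6 to 136.1 CPM in number 4, a log2 difference of -0.17 ± 0.04. Both differences had an edgeR adjusted p of 1.00.

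KO clones were also set against each WT title number, in 2 contrasts that share the KO clones. Against number 1, Ddit3 rose by 1.5 ± 0.16, Cebpg by 0.61 ± 0.04 and Trib3 by 3.89 ± 0.72 (log2, SE), where 0.655% of all genes were called higher. The edgeR adjusted p-values were 0.00706, 0.000319 and 0.0484. Against number 2, where 0.277% were called higher, Ddit3 rose by 1.23 ± 0.16 and Cebpg by 0.45 ± 0.04, with edgeR adjusted p-values of 0.0239 and 0.00396. Trib3 had a log2 fold change of 2.45 ± 0.66 there and was not called (edgeR adjusted p = 0.158). Number 2 includes WT 2D, where Trib3 was at 23.42 CPM, against 3.755 CPM in WT 2E and 6.76 CPM in WT 2F. Atf4, Atf5, Nupr1 and Cebpb were called in neither contrast. The 5 calls of the 2 contrasts came down to 2 without WT 1B and to 3 without WT 1C, WT 2F, KO 3H, KO 3I, KO 4J or KO 4L.

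**Figure D4:**
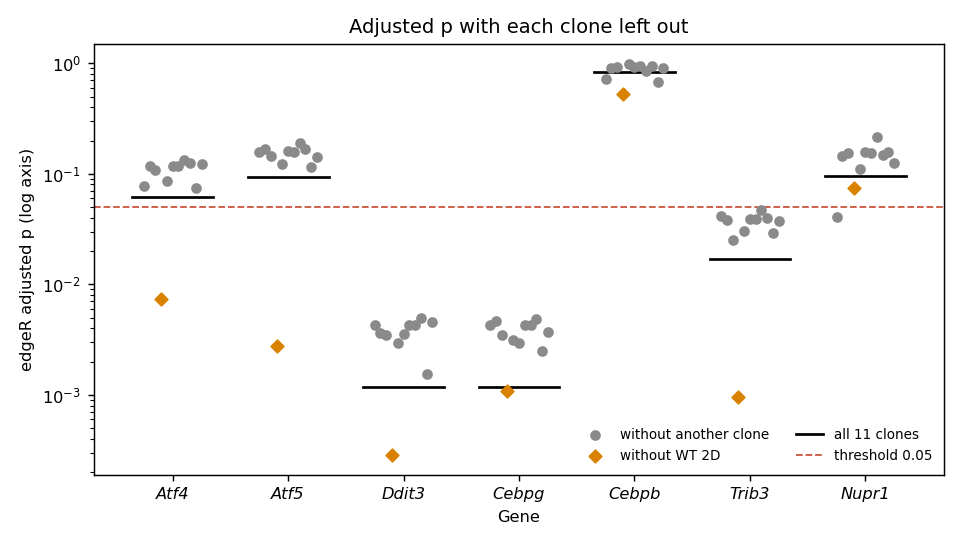
Adjusted p in edgeR's test (vertical log axis) for the 7 tested genes with all 11 clones (black bars), without WT 2D (diamonds) and without each other clone (circles); the dashed line marks 0.05. Ddit3, Cebpg and Trib3 stay under the line throughout, Atf4 and Atf5 drop under it without WT 2D, Nupr1 drops under it without WT 1A, and Cebpb stays far above it.

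Promoter sequence was read for all 8 genes from 250 bases before to 50 after the RefSeq start (GRCm38.p6), on both strands, with exact letters. Genes raised by ATF4 often carry a C/EBP-ATF response element, searched here as TGATGNAAN, and this was present in 3.95% of 32851 promoter windows. It was found in 3 of the 8 genes, Atf3, Nupr1 and Trib3. The stretches are shown because they are the matches to the element among the 8 genes. Each reads 5′ to 3′ along the gene, and the capitals mark the match, which in all 3 lies on the strand opposite to the gene and so appears as its reverse complement.
Atf3, chr1:191183406-191183474, minus strand: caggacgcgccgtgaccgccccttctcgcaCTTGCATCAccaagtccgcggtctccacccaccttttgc
Nupr1, chr7:126625543-126625611, minus strand: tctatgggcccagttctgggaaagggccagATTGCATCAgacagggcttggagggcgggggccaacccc
Trib3, chr2:152344031-152344077, minus strand: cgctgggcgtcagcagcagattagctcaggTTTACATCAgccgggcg

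The matches of Atf3 and Nupr1 lie at the same distance, positions -111 to -103 from the start, and that of Trib3 lies at 14 to 22, inside the transcript. The core TGATGCAA, which is nested in the longer motif, was in Atf3 and Nupr1 and in 0.895% of all windows. The cAMP response element TGACGTCA, in 1.79% of windows, and the C/EBP palindrome TTGCGCAA, in 0.183%, were in none of the 8 windows. The CCAAT box was in 5 of the 8 and in 37.4% of all windows. Ddit3 and Cebpg rose with no match to the response element in their windows. Sequence farther than 250 bases before the start was not searched. The Ddit3 window, shown for that lack of a match, held the CCAAT box once (capitals), on the opposite strand at positions -77 to -73.
Ddit3, chr10:127290686-127290750, plus strand: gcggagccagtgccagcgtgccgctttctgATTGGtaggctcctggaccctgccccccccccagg

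Upstream of ATF4, 12 genes were tested, of the eIF2alpha kinases, phosphatase subunits and the mitochondrial OMA1-DELE1 relay, with Eif2s1, Gcn1l1, Eif2b1 and Eif2b5. Their mRNAs gave 0 higher and 1 lower, with a median log2 fold change of -0.05 beside -0.01 over all genes. At an unadjusted p under 0.05, 1 was higher, and DESeq2 and limma-voom called 0 higher. Over all 11900 tested genes, edgeR called 273 lower, and 2417 had an unadjusted p under 0.05 in either direction. The lower gene was Eif2ak1, the heme-regulated kinase HRI, at 91.9 ± 8.28 CPM in WT and 76.5 ± 2.56 CPM in KO (SD, n = 6 and 5). It fell by 0.27 ± 0.06 on the log2 scale (SE), with an edgeR adjusted p of 0.0335, and the call was lost with any of 8 clones left out, all but WT 1C, 2D and 2E (adjusted p up to 0.0854). Eif2ak2, Eif2ak3 and Eif2ak4, the kinases PKR, PERK and GCN2, had log2 fold changes of -0.12, -0.05 and -0.02 (edgeR adjusted p = 0.285, 0.546 and 0.860). Oma1, the inner membrane protease, had -0.11 ± 0.11 and Dele1, its relay substrate, -0.45 ± 0.21 (edgeR adjusted p = 0.634 and 0.255). Dele1 varied from 34.5 to 72.05 CPM among KO clones. RNA levels do not measure kinase activity or relay cleavage.

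Downstream, known ATF4 target genes outside the 8 rose in large numbers. All gene lists used here were drawn up after earlier results of these data had been seen. The share of targets called, set beside all genes, is therefore a description and not an independent test. Of 47 tested targets in 4 groups, 32 were called higher (68.1%, beside 2.76% of all genes) and 46 had a positive fold change, and the median log2 fold change was 0.49. None was lower by edgeR, DESeq2 or limma-voom, and 0 were lower at an unadjusted p under 0.05. Unlike those of Ddit3 and Cebpg, many of these calls turned on single clones. Leaving out a WT clone gave 21 (1A), 16 (1B), 19 (1C), 39 (2D), 25 (2E) or 17 (2F) higher targets. Leaving out a KO clone gave 17 (3H), 13 (3I), 17 (4J), 23 (4K) or 17 (4L). Calls over all tested genes moved the same way, so this loss is not particular to the targets. The genes called higher went from 328 to 419 without WT 2D. With any other clone left out they ran from 137 (KO 3I) to 297 (WT 2E). For 21 of the 47 every KO clone was above every WT clone, and for 35 without WT 2D.

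Enzymes of amino acid synthesis had 11 of 13 higher (median 0.78). With 1 clone left out the count was 12 without WT 2D and 3 to 7 without any other clone, lowest without WT 1B, WT 2F or KO 3I. The serine phosphatase Psph rose from 38.9 ± 5.78 to 94.1 ± 17.02 CPM, or by 1.28 ± 0.14 on the log2 scale (SE; edgeR adjusted p = 0.00117). Pck2, mitochondrial PEP carboxykinase, rose by 0.76 ± 0.11 and the proline enzyme Pycr1 by 1.32 ± 0.23. Cth, which makes cysteine, had the largest fold change at 3.83 ± 0.86, and Asns, asparagine synthetase, had 1.04 ± 0.23. The Cth and Asns calls (edgeR adjusted p = 0.0323 and 0.0294) were lost with any of 6 clones left out (WT 1B and 2F, and KO 3H, 3I, 4J and 4L), and the Cth call also without WT 1A.

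Amino acid transporters had 7 of 9 higher (median 0.76), and 4 to 8 with 1 clone left out (4 without KO 3I or KO 4J, 8 without WT 2D). The neutral amino acid transporter Slc1a4 rose from 31.6 ± 8.55 to 77.3 ± 6.17 CPM, or by 1.29 ± 0.17 on the log2 scale (SE; edgeR adjusted p = 0.00268). Slc3a2 and Slc7a5, the subunits of a leucine transporter, rose by 0.78 ± 0.11 and 0.76 ± 0.11. The glycine transporter Slc6a9 rose by 2.44 ± 0.41. These 4 calls held with each clone left out.

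Aminoacyl-tRNA synthetases had 7 of 12 higher (median 0.40), all 12 with a positive fold change. With 1 clone left out the count ran from 3 without KO 3I to 12 without WT 2D, and it was 4 without WT 1B, WT 1C, WT 2F, KO 3H, KO 4J or KO 4L. Sars, the seryl-tRNA synthetase, rose from 182.5 ± 20.7 to 288.8 ± 29.2 CPM, or by 0.66 ± 0.09 on the log2 scale (SE; edgeR adjusted p = 0.00257). Aars, Wars and Lars, for alanine, tryptophan and leucine, rose by 0.41 ± 0.08, 0.40 ± 0.08 and 0.39 ± 0.07. The Lars call was lost without KO 3I (edgeR adjusted p = 0.0520).

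Stress effectors had 7 of 13 higher (median 0.56). It was also 7 without WT 2D or WT 2E, and was 3 without KO 3I and 4 or 5 without any other clone. Sesn2, a leucine sensor that restrains mTORC1, rose from 47.95 ± 13.6 to 134.4 ± 11.7 CPM, or by 1.49 ± 0.18 on the log2 scale (SE; edgeR adjusted p = 0.00211). Vldlr, a lipoprotein receptor, rose by 3.07 ± 0.40, from 9.33 ± 6.23 to 78.8 ± 6.97 CPM. Chac1, which breaks down glutathione and is a target of ATF4 with ATF3 and CHOP, rose by 1.86 ± 0.42 (edgeR adjusted p = 0.0335) and lost its call with any of 9 clones left out, all but WT 2D and 2E. Genes assigned to CHOP cover cell death, survival and recovery from stress. The list was not sorted by the direction in which CHOP acts, and it shares a gene with the stress effectors. All 8 tested had positive fold changes (median 0.33), and 1 of 8 was called higher by edgeR, beside 2.76% of all tested genes. That gene was Bbc3, the BH3-only death protein PUMA and also a p53 target, which rose from 14.9 ± 1.80 to 26.8 ± 3.31 CPM (0.85 ± 0.10 on the log2 scale, SE; edgeR adjusted p = 0.00183). The count was 3 without WT 2E and 1 without any other clone, 3 by DESeq2 and 6 at an unadjusted p under 0.05. Over all 11900 tested genes, DESeq2 called 638 higher, and 2417 had an unadjusted p under 0.05 in either direction.

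**Figure D5:**
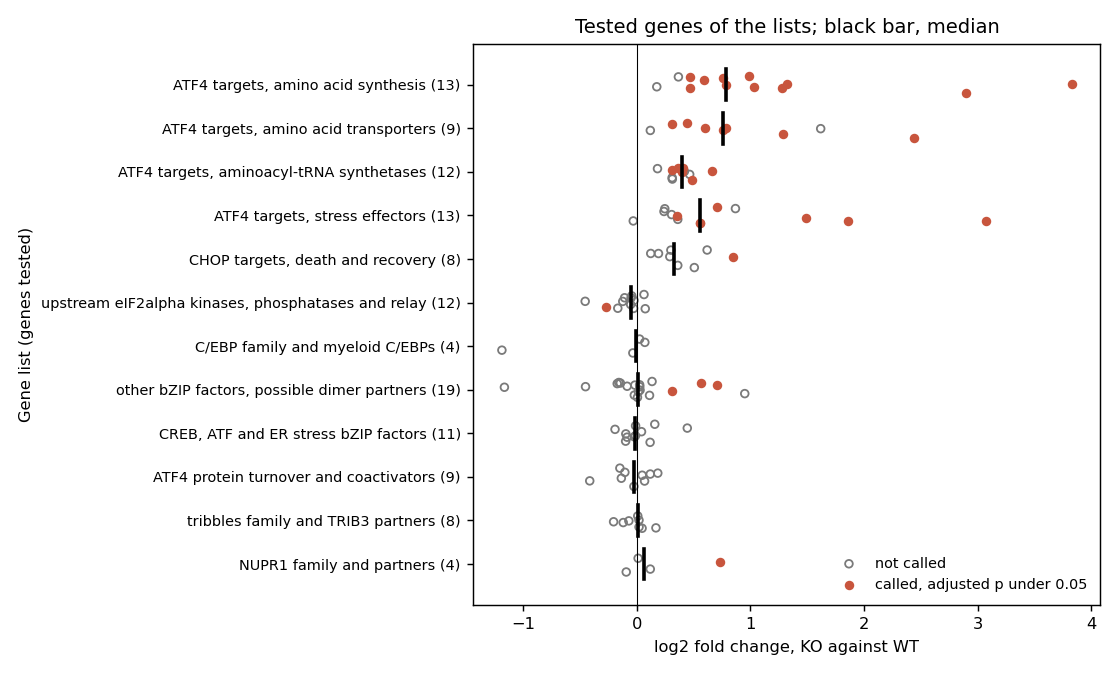
Log2 fold change of KO against WT (horizontal axis) for every tested gene of each list, the 8 genes left out; filled points are called at an adjusted p under 0.05 and black bars are medians. The 4 ATF4 target lists have medians of 0.40 to 0.78, and the upstream, C/EBP, CREB and tribbles lists have medians close to 0.

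The order of the clones seen in the 8 genes recurred in the targets. WT 2D was the highest WT clone for 40 of the 47 targets (85.1%) and for 27.9% of all tested genes. KO 4K was the lowest KO clone for 33 (70.2%, against 25.7% of all tested genes), and KO 3I the highest for 29 (61.7%, against 17.9%). WT 1C was the lowest WT clone for 22 (46.8%, against 12.9%). These shares describe genes measured in the same libraries, which are not independent of each other.

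Further partners of the 8 proteins were counted in 6 more lists. The remaining genes with a Cebp symbol had 0 of 4 called by edgeR, DESeq2 or limma-voom and 0 of 4 at an unadjusted p under 0.05. They are Cebpa, Cebpd, Cebpe and Cebpz, and Cebpz does not encode a bZIP protein. Cebpa, the master factor of granulocyte commitment, stood at 526.5 ± 108.1 CPM in WT and 514.5 ± 49.9 CPM in KO, and Cebpd at 25.3 ± 7.0 and 26.6 ± 3.37 CPM (SD, n = 6 and 5). Cebpe, needed for late granules, ranged from 9.53 to 87.2 CPM in WT and from 3.01 to 37.6 CPM in KO (log2 fold change -1.19 ± 0.73, SE; edgeR adjusted p = 0.397). Other bZIP factors had 3 of 19 higher, beside the 2.76% of all genes. These were Nfe2l1, the proteasome regulator NRF1 (0.56 ± 0.07, edgeR adjusted p = 0.00172), the small MAF partner Mafg (0.31 ± 0.05, adjusted p = 0.00878) and Jdp2, which pairs with Jun and ATF proteins (0.71 ± 0.16, adjusted p = 0.0343). The Jdp2 call was lost with any of 9 clones left out, all but WT 2D and 2E. Jdp2 was also counted above, among the stress effectors.

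CREB, ATF and ER stress bZIP genes, Atf6 and Xbp1 among them, had 0 of 11 called by edgeR or limma-voom, 1 by DESeq2 and 2 at an unadjusted p under 0.05. Creb1, the most abundant, had a log2 fold change of 0.04 ± 0.05. Over all 11900 tested genes, DESeq2 called 1259 and 2417 had an unadjusted p under 0.05, in either direction. Genes for turnover and coactivation of ATF4 protein had 0 of 9 called by edgeR or limma-voom, 2 lower by DESeq2 and 4 at an unadjusted p under 0.05 (1 higher, 3 lower), and the most abundant, the ubiquitin ligase subunit gene Skp1a, had -0.10 ± 0.04. The tribbles family and partners of TRIB3 had 0 of 8 called by edgeR, DESeq2 or limma-voom, and 0 of 8 at an unadjusted p under 0.05. Among them Akt1, the kinase that TRIB3 binds, stood at 380.6 ± 23.9 and 363.0 ± 4.72 CPM. Partners of NUPR1 had 1 of 4 called higher by edgeR, beside 2.76% of all tested genes. A single call among 4 genes does not describe the partners as a set. The gene was the cell cycle inhibitor Cdkn1a, which is also a p53 target and rose by 0.74 ± 0.10 (edgeR adjusted p = 0.00291).

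The genes whose clone-to-clone pattern was most like that of Atf4 were sought after taking each genotype's mean out, over 11 clones and 9298 genes. Likeness was the root mean square difference between profiles scaled to unit SD, where the median gene was at 1.38. The nearest were Xpot (0.131), which exports tRNA from the nucleus, the aminoacyl-tRNA synthetase genes Gars (0.146) and Eprs (0.154), the proteasome gene Psmc6 (0.194) and the synthetase subunit gene Farsb (0.194). Of the 8 genes, Atf5 was at 0.225, Cebpb at 0.391, Trib3 at 0.508, Ddit3 at 0.806, Cebpg at 1.25 and Nupr1 at 1.61. Psmc6 shared the pattern within genotypes and had a log2 fold change between them of 0.05 ± 0.04 (edgeR adjusted p = 0.559). For Ddit3 the nearest genes were Shc1 (0.366), Ctnnd1 (0.410), Rnf121 (0.418), Mettl5 (0.424) and Pwp2 (0.456), where the median gene was at 1.39. The points share libraries, and WT 2D is the most deviant WT clone for Atf4, Atf5 and Trib3.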

How the data were processed

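Libraries of 11 clones, made with a directional kit after polyA selection (per the labels' protocols), were grouped by the labelled genotype. For each clone the authors deposited raw read counts by Ensembl ID, not normalised. STAR, HTSeq, edgeR and mm9 are named, per the submitters' processing notes. The deposited count files are marked as made without strand. The sources used here do not give the annotation release. IDs were matched to symbols in GENCODE M21 (GRCm38), used for names, exon lengths and overlaps (32860 of 37583 IDs, with 99.6% of counts). Rows naming no gene were left out.

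KO was tested against WT by the robust quasi-likelihood method of edgeR after TMM and filterByExpr (minimum 10 counts, which came to 0.424 CPM in at least 5 clones), with Benjamini-Hochberg adjustment over 11900 genes and a call at an adjusted p under 0.05. Standard errors were worked back from the F statistic. CPM are linear. Exact permutation tests, two-sided, compared the 2 group means of log2(CPM + 0.1), or of log2 ratios, over all splits of the clones. Alternatives were other normalisations, filters and tools, title-number models, omissions, a late neutrophil covariate and, added after seeing the data, equal depth by thinning. The script was tested on simulated data. The 8 genes, the lists and the motifs were chosen with earlier results of these data known. Genes named from a list are up to 6 called ones with the smallest adjusted p, or the most abundant if none was called; all upstream and C/EBP genes may be named. Mars and Ppp1r15a were named after their values were seen, Mars for its overlap with Ddit3 and Ppp1r15a as a phosphatase subunit outside the upstream list. Promoters are RefSeq's. Tools were edgeR 4.0.16, DESeq2 1.42.0 and limma 3.58.1 in R 4.3.3, and pandas 2.3.3, matplotlib 3.10.9 and numpy 2.4.6 in Python 3.11.15.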

Additional observations from a re-analysis of the deposited data

Results flagged for a closer look

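The levels of the 8 genes in each genotype make 16 groups of clones, each checked for a highest or lowest clone set apart by Dixon's gap test, which picks out about 1 in 20 groups by chance. In WT, clone 2D was set apart for Atf5 at 96.7 CPM and for Trib3 at 23.42 CPM, each with a gap to the next clone of 0.734 of the WT range (critical value 0.625). In KO, clone 4K was set apart for Atf4 at 518.2 CPM, below the other KO clones by 0.813 of the KO range (critical value 0.710).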

How the results depend on the processing

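The count of genes called among the 8 was 3 and rose to 6 with DESeq2 and with the title number as a random block (both adding Atf4, Atf5 and Nupr1), and to 5 with limma-voom and with the late neutrophil covariate (both adding Atf4 and Atf5). It was 3 to 5 with single clones left out. It fell to 2 with counts summed per title number (Atf4 and Ddit3) and when every clone of number 1, 3 or 4 was dropped (Cebpg and Ddit3 in each), and was 4 without title number 2 (adding Atf5) and with no filter (adding Atf3). Over all genes the calls were 328 higher and 273 lower, against 638 and 621 with DESeq2, 1043 and 940 with the block (consensus correlation -0.215), 531 and 411 with the covariate, 178 and 129 with 4 title-number means, 175 and 154 with no filter, and 190 and 122 with summed counts; leaving out all clones of title number 1, 3 or 4 gave 27 and 18, 56 and 36, and 24 and 8. The 5 calls of KO against each WT title number became 9 with DESeq2 and 2 to 6 with single clones left out. Where leaving out KO 3H or 3I left title number 3 with a lone clone, that clone was assumed to vary like the others. Differences between title numbers gave 0 calls among the 8 in every alternative run. Signs turned for genes near 0 that were never called: Eif2ak4 came to 0.0146 without title number 1, 0.0104 with the covariate and -0.0555 to 0.00157 over omissions, Cebpa to -0.115 to 0.0401 over omissions, Cebpd to -0.000486 without title number 3 and -0.00664 to 0.224 over omissions, and Creb1 to -0.00194 without title number 1. In the first 100 bases before the start the response element was in 0 of the 8 promoters and the CCAAT box in 3. No paired analysis was possible because WT and KO clones share no title number. The causes were not tested. Depth limits Atf3 above all, at 2 to 26 counts per library.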

Other observations

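Of the other blood lineages looked for, monocyte and macrophage markers summed to 817.5 CPM in WT 2D and to at most 2312 CPM in the other WT clones, against 1147 to 1999 CPM in KO. Mast cell and basophil markers summed to 1180 CPM in WT 2D, 4245 CPM in the highest WT clone and 2218 to 5058 CPM in KO. Megakaryocyte markers were at 62.6 to 219.3 CPM in WT and 108.5 to 235.7 CPM in KO, with none of these lists' genes called by edgeR, DESeq2 or limma-voom and none at an unadjusted p under 0.05. B lymphoid markers were at 30.9 to 50.6 CPM in WT and 5.02 to 27.9 CPM in KO, with 1 of 4 tested genes called lower by edgeR and Pax5 at 0 in all clones. Over all tested genes edgeR called 273 of 11900 lower. Erythroid markers reached at most 34.1 CPM, T lymphoid markers 6.84 CPM with Cd3e at 0, and hepatocyte markers 1.95 CPM with Ttr and Serpina1a at 0 in all clones. What part these cells have in the levels of the 8 genes was not tested.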
